A study of Homo sapiens with 8 samples.

Results

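The contrast described here is the change of the response to TCDD between both sampling times, which is the log2 effect of TCDD at D2 minus the log2 effect at D1. It was computed in all 8 libraries of the series, 2 in each of 4 groups, for 17268 of the 27317 genes listed, those with enough counts to test. The cells were Mel1, a human embryonic stem cell line. Per the labels, TCDD (2 nM, dissolved in DMSO) or an equal volume of DMSO was given at the embryonic stem cell stage. The groups were DMSO at D1, TCDD at D1, DMSO at D2 and TCDD at D2. D1 came just before differentiation. D2 came 2 days into a cardiac protocol, and all D2 cells, DMSO controls included, had been in medium with 5 µM CHIR99021, a GSK3 inhibitor that switches on Wnt signalling. The comparison asks which responses to TCDD persisted, faded, appeared late or turned round between D1 and D2. The labels do not state how long cells were exposed or whether TCDD was still in the medium at D2. They also do not state whether replicates were separate cultures, so p-values measure only the spread between these libraries, which may be technical.

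TCDD is a dioxin and a persistent ligand of the aryl hydrocarbon receptor (AHR). The bound receptor enters the nucleus, pairs with ARNT and binds DNA at elements with the core GCGTG. Its classic targets encode xenobiotic-metabolising enzymes (CYP1A1, CYP1B1) and feedback inhibitors of the receptor (TIPARP, AHRR). In the cardiac protocol, Wnt activation drives stem cells into a state like the primitive streak, in which MIXL1, EOMES and T (brachyury) are switched on ahead of mesoderm.

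For a view of the DNA that carries the core, the 250 bases upstream of the RefSeq start (GRCh38.p14, gene strand, 5′ to 3′) are given for CYP1A1 (chr15:74725529-74725778, minus strand) and TIPARP (chr3:156674340-156674589, plus strand), whose responses shrank, and for PCDH18 (chr4:137532495-137532744, minus strand), whose response appeared at D2. Capitals mark GCGTG and its reverse complement CACGC.
CYP1A1: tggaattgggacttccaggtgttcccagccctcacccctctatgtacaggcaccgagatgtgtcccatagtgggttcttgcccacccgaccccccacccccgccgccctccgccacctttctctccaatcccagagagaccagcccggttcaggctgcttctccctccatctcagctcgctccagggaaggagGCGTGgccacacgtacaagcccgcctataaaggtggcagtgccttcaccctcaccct
TIPARP: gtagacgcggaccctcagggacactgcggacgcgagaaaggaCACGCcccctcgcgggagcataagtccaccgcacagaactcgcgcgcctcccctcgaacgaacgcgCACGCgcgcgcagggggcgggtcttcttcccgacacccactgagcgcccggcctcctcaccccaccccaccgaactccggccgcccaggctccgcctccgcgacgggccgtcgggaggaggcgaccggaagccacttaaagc
PCDH18: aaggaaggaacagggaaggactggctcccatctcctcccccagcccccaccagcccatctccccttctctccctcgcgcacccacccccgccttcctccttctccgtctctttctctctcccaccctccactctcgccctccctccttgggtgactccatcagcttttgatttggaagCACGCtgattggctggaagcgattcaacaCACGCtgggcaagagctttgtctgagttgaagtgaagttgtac
The core matched once upstream of CYP1A1, at 2 places upstream of TIPARP and at 2 upstream of PCDH18. It is a common word, found on either strand in 31.9% of 27305 upstream windows of the same length. Among genes tested here it was in 43.5% of the 12402 windows matched. A match is not a binding site. No match lay in the windows of LRAT, ABCG2, APELA, SOX2 or CYP26A1, which says only that the letters are not in that window.

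With edgeR's quasi-likelihood test and a Benjamini-Hochberg adjusted p of 0.05, the TCDD effect differed between both times for 133 of the 17268 genes (0.770%). The effect was higher at D2 for 85 genes (0.492%) and lower at D2 for 48 (0.278%). For comparison, 207 genes (1.20%) were called for the TCDD effect at D1 and 509 (2.95%) for that at D2. The number of changed effects rested heavily on single libraries. It was 275 without TCDD replicate 1 of D1 and 29 without DMSO replicate 1 of D2. It was 57 and 82 without DMSO replicates 1 and 2 of D1, 41 without DMSO replicate 2 of D2, and 77 and 42 without TCDD replicates 1 and 2 of D2. Only without TCDD replicate 2 of D1 was it close to the full count, at 138. Of the 133 genes, 22 were called in all 8 of these fits. For changed effects described in the following paragraphs of the results, the number of these fits in which the call held is given where it was under 8. It is not given for the values flagged in the later section.

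**Figure D1:**
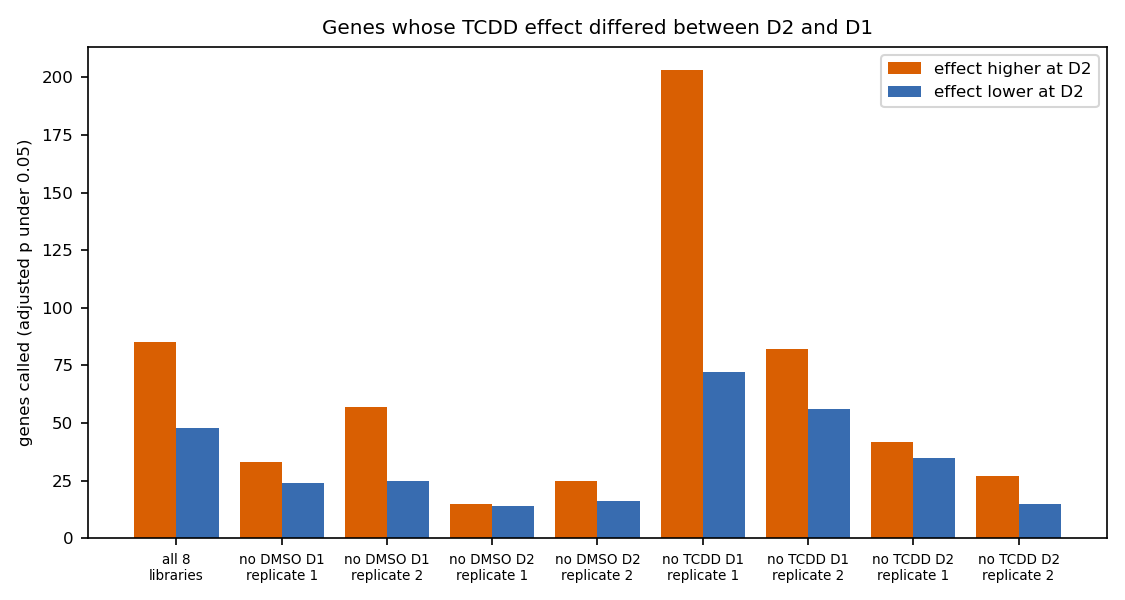
Number of genes whose TCDD effect differed between D2 and D1 (adjusted p of 0.05, edgeR), with all 8 libraries and with each library left out in turn. Bars side by side count genes with a higher and with a lower effect at D2. The counts run from 29 without DMSO replicate 1 of D2 to 275 without TCDD replicate 1 of D1.

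Genes were sorted into classes by the 3 calls, so the effects that put a gene into its class are descriptions. An effect was called kept when it passed at D1 and D2 in the same direction and the change between them did not pass. There were 63 such genes (0.365%), 47 raised and 16 lowered. Effects called at both times with the same sign grew for 3 genes (0.0174%) and shrank for 4 (0.0232%). Effects that passed at D1 and in the change but not at D2 had faded (30 genes, 0.174%), and those that passed at D2 and in the change but not at D1 were late (79 genes, 0.457%). For 7 genes (0.0405%) the effect passed at both times with opposite signs. A further 10 genes (0.0579%) passed only for the change. The remaining calls cannot be placed, because the change itself did not pass: 100 genes (0.579%) were called at D1 alone and 353 (2.04%) at D2 alone. A call at a single time is therefore no evidence of a different response for these genes.

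**Figure D2:**
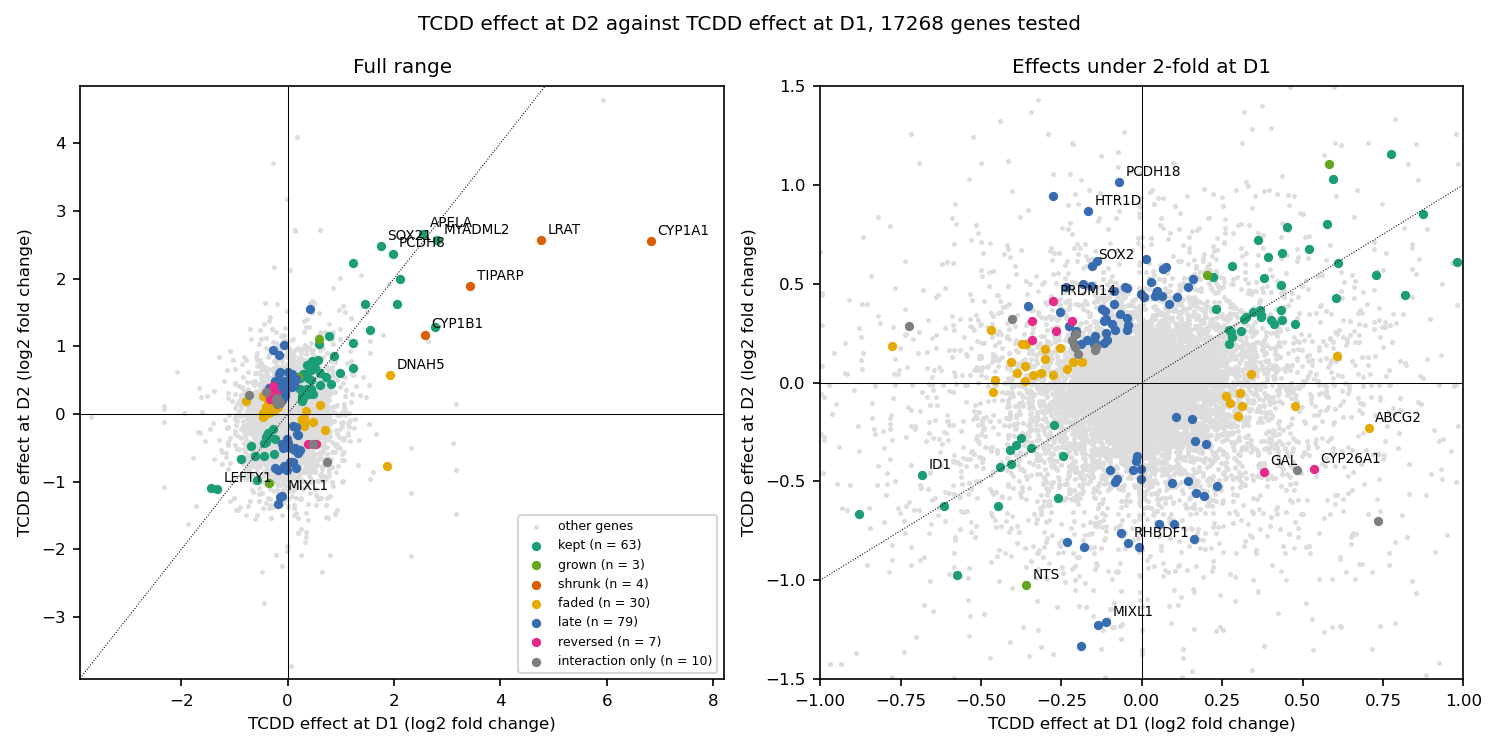
Log2 effect of TCDD at D2 (y axis) against that at D1 (x axis) for the 17268 genes tested, coloured by class, over the full range on the left and near 0 on the right; the dotted line marks equal effects. Genes with shrunk effects (CYP1A1, LRAT, TIPARP, CYP1B1) lie far to the right and under the line, and the 79 late genes spread along the vertical axis.

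Genes listed here as AHR targets were among the strongest responses to TCDD at D1, and 4 of them shrank by D2 while staying above the DMSO level. CYP1A1, the P450 enzyme that oxidises aromatic hydrocarbons, stood at 0.761 and 0.813 CPM (counts scaled to a common library total) with DMSO and 101.0 and 77.7 CPM with TCDD at D1. At D2 it stood at 0.464 and 0.292 CPM with DMSO and at 2.56 and 1.82 CPM with TCDD. The treated libraries were above the controls at both times, and the fold went from 113 to 5.89. The log2 change of effect was -4.27 ± 0.60 (SE, edgeR adjusted p = 0.00125), with a 95% interval of -5.52 to -3.01. This call, which rests on few counts at D2, was lost without DMSO replicate 1 of D2 (edgeR adjusted p = 0.0860) and with robust shrinkage of the spread (edgeR adjusted p = 0.0596).

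The other shrunk effects were measured on more counts and passed in all 8 fits with a library left out. LRAT, which esterifies retinol for storage, stood at 24.4 and 21.9 CPM with DMSO and at 629.9 and 631 CPM with TCDD at D1. Its D2 levels were 39.7 and 33.8 CPM with DMSO and 226 and 209 CPM with TCDD. The fold thus went from 27.2 to 5.94, a log2 change of -2.20 ± 0.10 (SE, edgeR adjusted p = 1.80e-10). The AHR inhibitor TIPARP, which attaches ADP-ribose to proteins, went from 6.01 and 5.77 CPM with DMSO to 61.9 and 65.5 CPM with TCDD at D1, and from 8.30 and 9.49 to 33.3 and 32.6 CPM at D2. Its fold was 10.8 at D1 and 3.69 at D2, a log2 change of -1.55 ± 0.11 (SE, edgeR adjusted p = 2.85e-07). CYP1B1, a related P450, had 8.01 and 7.83 CPM with DMSO and 47.4 and 47.2 CPM with TCDD at D1. At D2 it had 15.9 and 16.4 CPM against 35.9 and 36.8 CPM. Its fold fell from 5.97 to 2.25, a log2 change of -1.41 ± 0.09 (SE, edgeR adjusted p = 1.01e-07). For these 3 genes the level with TCDD was lower at D2 than at D1 and the level with DMSO was higher. TIPARP overlaps the antisense gene TIPARP-AS1, and since the strand setting of the counting is not given, reads of both cannot be told apart.

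Of 24 listed AHR targets, 19 had enough counts to test. The list, which includes LRAT, was chosen with earlier results of these data known, so its counts are descriptions. At D1, 11 rose and 1 fell, and at D2, 7 rose and 1 fell. Over all genes tested, 0.764% rose and 0.434% fell at D1, and 1.41% rose and 1.54% fell at D2. For the change, 0.492% were higher and 0.278% lower. These shares are the ones to set beside the other gene lists below too. The change of effect was lower at D2 for 5 (CYP1A1, CYP1B1, TIPARP, LRAT and ABCG2) and higher for none. The median log2 change over the list was -0.18, beside -0.00 over all genes tested. AHRR, the AHR repressor, had 1.42 and 1.68 CPM with DMSO and 3.36 and 3.72 CPM with TCDD at D1, and 1.28 and 1.09 CPM against 1.26 and 1.43 CPM at D2. Its groups were apart at D1 and overlapped at D2, but its log2 change of -1.01 ± 0.27 (SE) did not pass (edgeR adjusted p = 0.106). It passed with no filter beyond 1 count (0.0173) and with a replicate block within each time (0.0309). The receptor AHR (log2 change 0.38, edgeR adjusted p = 0.321) and its partner ARNT (0.04) did not pass either.

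**Figure D3:**
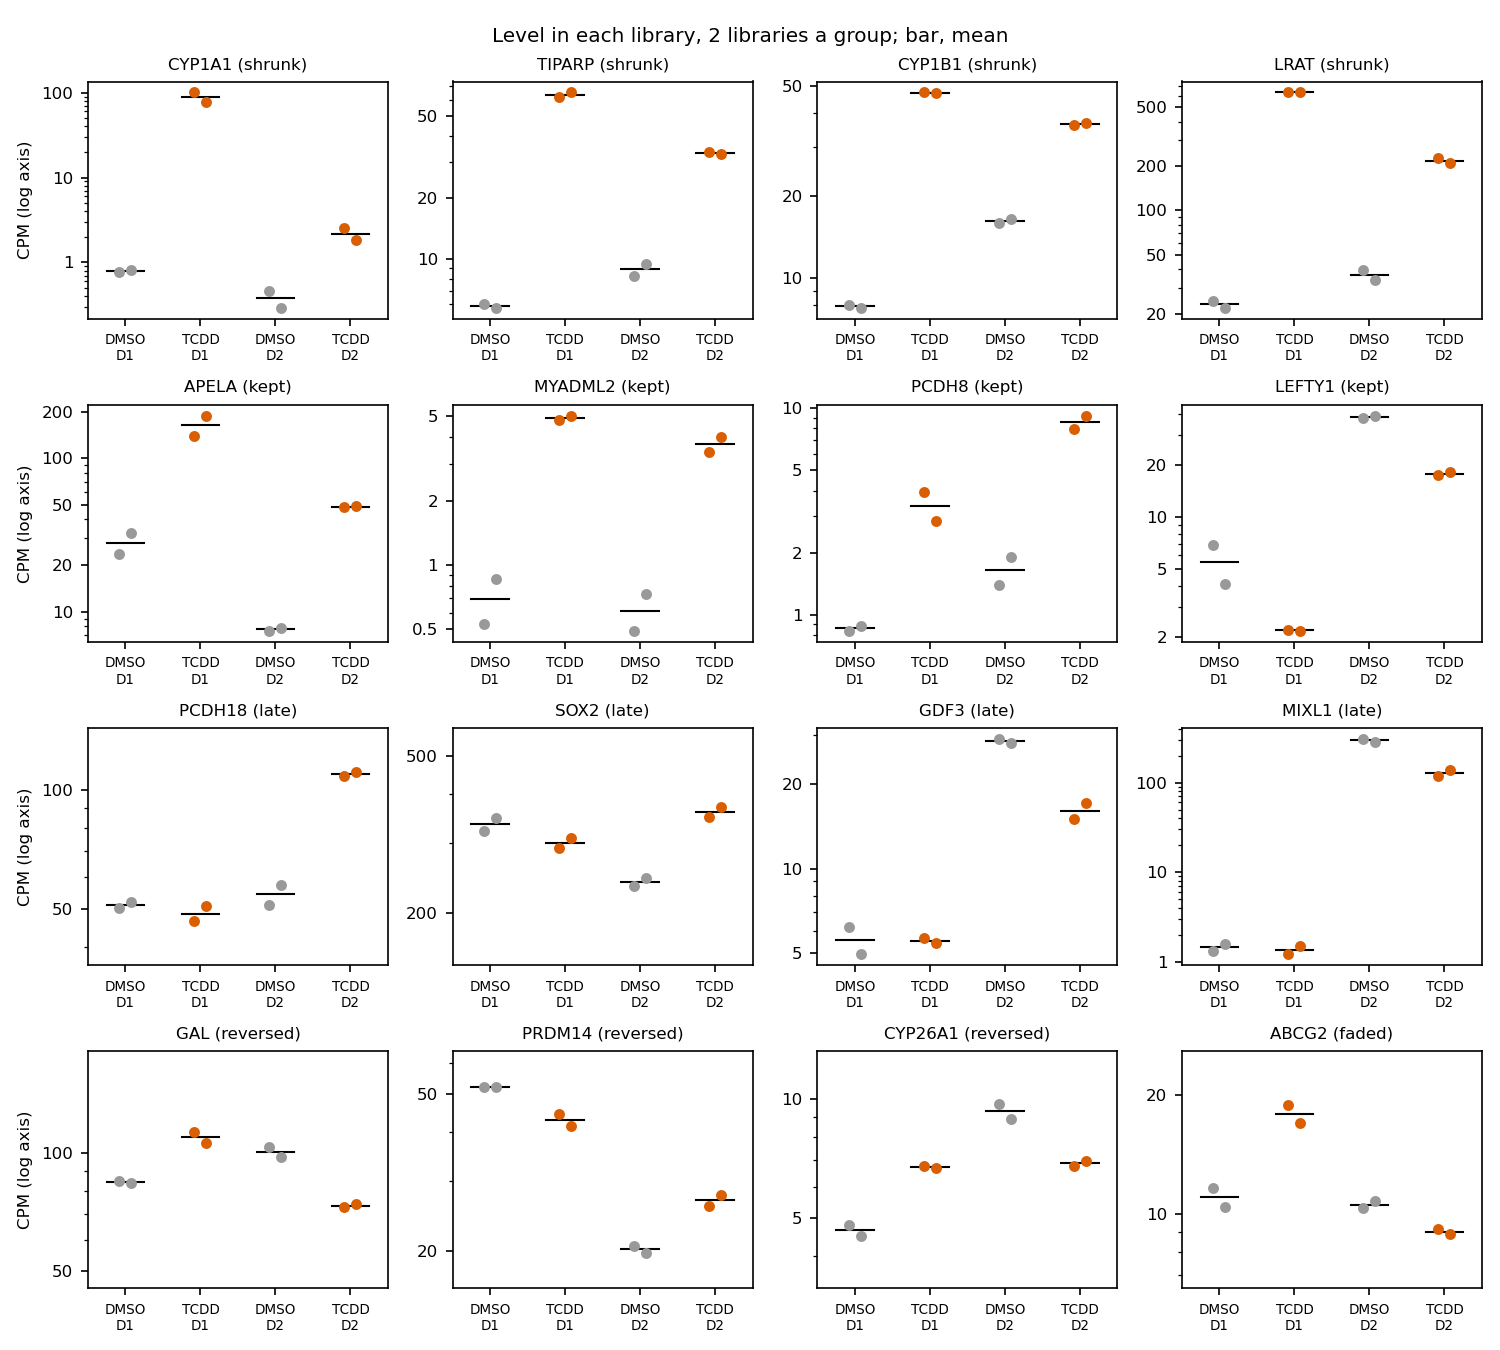
CPM of 16 genes in each of the 8 libraries, on a log axis; points are libraries, bars are means of 2, and colours are DMSO and TCDD. In CYP1A1, TIPARP, CYP1B1 and LRAT the gap between TCDD and DMSO narrows from D1 to D2. In late genes such as PCDH18 it opens at D2, and in GAL and PRDM14 it changes sides.

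Faded effects were mostly small, and most depended on single libraries. The clearest was ABCG2, an efflux pump that carries xenobiotics and a known AHR target. It stood at 11.6 and 10.4 CPM with DMSO and 18.9 and 17.0 CPM with TCDD at D1, and at 10.3 and 10.8 CPM against 9.12 and 8.86 CPM at D2. TCDD libraries were thus above DMSO at D1 and below at D2, with a log2 change of -0.94 ± 0.12 (SE, edgeR adjusted p = 0.000921). Of the 30 faded genes, ABCG2 alone passed in all 8 fits with a library left out. DNAH5, a dynein heavy chain of motile cilia, had 2.38 and 2.06 CPM with DMSO and 9.07 and 7.76 CPM with TCDD at D1, and 1.47 and 1.44 CPM against 2.47 and 1.82 CPM at D2. Its fold went from 3.80 to 1.49 (edgeR adjusted p of the change 0.0148), and the call held in 4 of the 8 fits.

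Of 30 tested genes of glycolysis and hypoxia, 8 rose at D1 and 1 rose at D2. The change of effect passed for 3, all lower at D2, which were the kinase PDK1 that holds pyruvate back from mitochondria (-0.37), the mitophagy receptor BNIP3 (-0.36) and the collagen prolyl hydroxylase P4HA1 (-0.33). With a library left out, these calls held in 2, 4 and 3 of the 8 fits in that order (edgeR adjusted p up to 0.184, 0.160 and 0.194). BNIP3 stood at 119 and 127 CPM with DMSO and 157 and 147 CPM with TCDD at D1, and at 427 and 445 CPM against 429.9 and 409.6 CPM at D2. Its level had risen in both arms by D2, where the groups overlapped. The list's median log2 effect was 0.16 at D1 and 0.04 at D2, with a median change of -0.11. The glucose transporter SLC2A1 missed the threshold (log2 effect 0.74 at D1 and 0.23 at D2, edgeR adjusted p of the change 0.0578). The exception with a call at D2 was the vasodilator gene ADM, raised by 0.45 at D1 and 0.79 at D2.

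Of the 30 faded effects, 11 were rises at D1 (median log2 effect 0.34 at D1 and -0.10 at D2) and 19 were falls (median -0.36 and 0.10). Among the falls were the transcription factors STOX2 (change 0.56) and IRX2 (0.56), ETS1 (0.45), and the imprinted non-coding genes PWAR5 (0.73) and PEG13 (0.96). These calls held in 5, 5, 4, 4 and 2 of the 8 fits in that order. PWAR5 and PEG13 also lost theirs under DESeq2 (adjusted p = 0.101 and 0.0543), PWAR5 under robust shrinkage (edgeR adjusted p = 0.318) and PEG13 under limma-voom (0.0607). The number of faded genes ran from 3 to 82 as single libraries were left out.

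The kept responses were led by genes outside xenobiotic metabolism. APELA, an early embryonic ligand of the apelin receptor, stood at 23.8 and 32.6 CPM with DMSO and 140.1 and 191 CPM with TCDD at D1, and at 7.45 and 7.84 CPM against 48.4 and 48.7 CPM at D2. Its level fell from D1 to D2 in both arms, while its fold was 5.86 at D1 and 6.34 at D2. The log2 change was 0.11 ± 0.20 (SE), with a 95% interval of -0.30 to 0.53 (edgeR adjusted p = 0.896). The protocadherin gene PCDH8 had folds of 3.94 and 5.17 (95% interval of the log2 change -0.24 to 1.02). MYADML2 had folds of 7.00 and 5.94 (-0.96 to 0.48), and the homeobox gene LHX4 of 4.35 and 3.99 (-0.74 to 0.49). SOX21, a SOX factor that acts against pluripotency genes, had 2.56 and 3.25 CPM with DMSO and 8.38 and 11.4 CPM with TCDD at D1, and 0.519 and 0.657 CPM against 3.35 and 3.30 CPM at D2. Its folds of 3.38 and 5.60 differed by 0.73 on the log2 scale (95% interval 0.07 to 1.39), which did not pass over all genes (edgeR adjusted p = 0.418). SOX21-AS1 overlaps SOX21 and the counting may mix them.

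Of the 16 kept falls, 4 are described here, chosen after their values were seen. LEFTY1, a secreted inhibitor of Nodal, stood at 6.92 and 4.09 CPM with DMSO and 2.22 and 2.17 CPM with TCDD at D1, and at 38.0 and 39.0 CPM against 17.7 and 18.2 CPM at D2. It fell by 1.32 on the log2 scale at D1 and by 1.10 at D2, on a level that had gone up in both arms (95% interval of the change -0.24 to 0.69). The size of the fall at D1 leaned on DMSO replicate 1. Without that library the log2 change was -0.20 in place of 0.22. LEFTY2, a near-identical copy of LEFTY1, fell by 0.62 and by 0.63 (95% interval -0.36 to 0.34). How reads that match both genes were counted is not given, so their counts may be mixed. CER1, an inhibitor of Nodal, BMP and Wnt, fell by 1.45 and by 1.10. It had 84 and 36 counts with DMSO and 26 and 18 with TCDD at D1, so its DMSO replicates were far apart there. At D2 it had 1206 and 1204 counts against 596 and 544. ID1, a BMP target, fell by 0.68 and by 0.47, and the 95% interval of its change, 0.02 to 0.40, left out 0 without passing over all genes (edgeR adjusted p = 0.399). A missed threshold does not show an equal effect, so the intervals matter. For 45 of the 63 kept genes (32 raised and 13 lowered) the 95% interval of the change lay within 1.5-fold in either direction. For the other 18 it reached beyond that.

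The D1 and D2 contrasts use separate libraries, so the effect at the other time can be read without selection. Of the 132 genes raised at D1 (0.764%), 115 (87.1%) were also above DMSO at D2, and 53 of them were called there. Of the 75 lowered at D1 (0.434%), 42 (56.0%) were also below DMSO at D2, close to the 52.7% of all genes tested that had the same sign at both times, and 17 were called. Their median log2 effect at D2 was -0.04, against 0.26 for the genes raised at D1. The shares at each size of effect were as follows. Of 26 genes raised at least 2-fold at D1, 24 had the same sign at D2, with a median effect of 1.95 at D1 and 1.61 at D2. All 4 genes lowered that much stayed lowered. The D1 median is over genes chosen by their size at D1, which favours large values there, so the pair of medians does not show a decline. Under 2-fold, 91 of 106 rises (85.8%) and 38 of 71 falls (53.5%) had the same sign. Leaving out single libraries gave 81.8% to 95.7% for the rises and 44.8% to 67.4% for the falls, while all genes gave 49.2% to 55.6%. The lowest share of falls, 44.8% of 172, came without TCDD replicate 1 of D1, and the highest, 67.4% of 86, without DMSO replicate 2 of D1. In the other direction, 169 of 243 genes raised at D2 (1.41%; 69.5%) and 192 of 266 lowered at D2 (1.54%; 72.2%) had the same sign at D1. Of 24 genes raised at least 2-fold at D2, 22 had the same sign at D1, with a median effect of 1.59 at D2 and 1.52 at D1. For 28 lowered that much it was 21, with medians of -1.22 and -0.17.

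**Figure D4:**
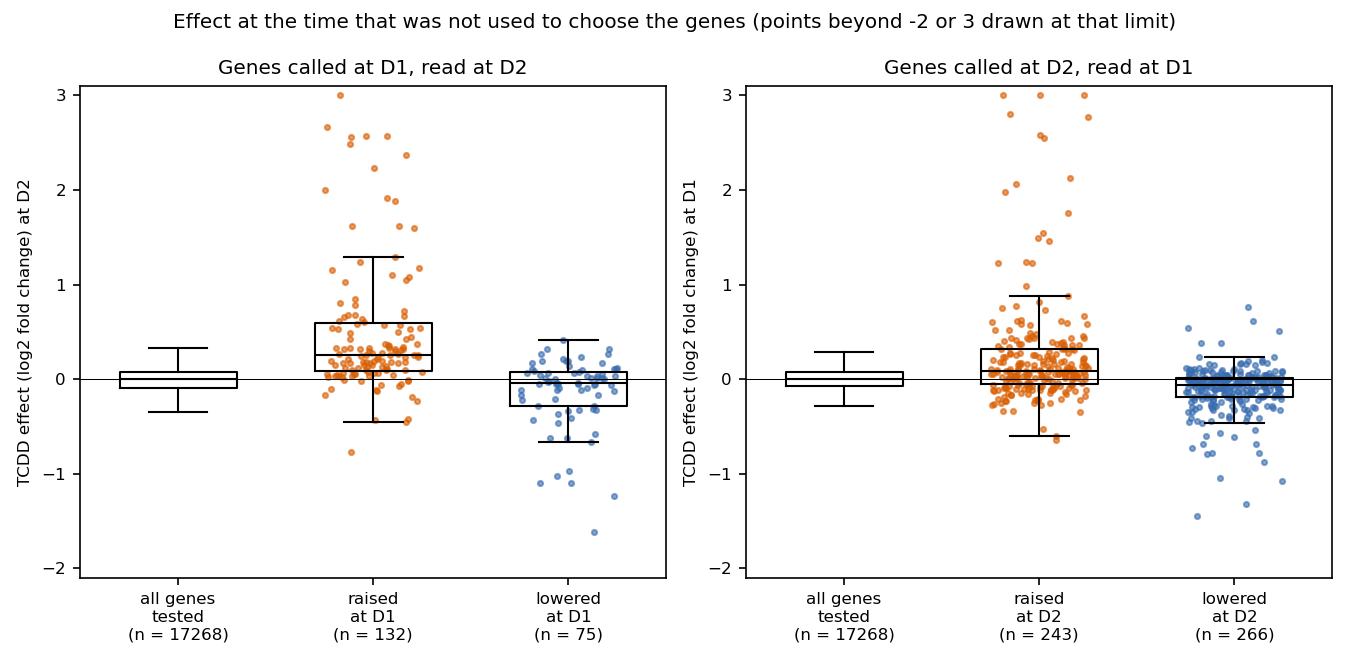
Log2 effect of TCDD at the time that was not used for the call, for genes called at D1 (read at D2) and at D2 (read at D1); points are genes, boxes show quartiles with whiskers to 1.5 times the interquartile range, and points beyond -2 or 3 are drawn at the limit. Genes raised at D1 sit above 0 at D2 (median 0.26), while those lowered at D1 centre near 0 (median -0.04).

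In all, 77 genes were called at both times, 70 with the same sign. These 70 and the 7 of opposite sign together are 37.2% of the D1 calls and 15.1% of the D2 calls. Across the 639 genes called at either time the effects correlated with r = 0.62, and across all genes with r = 0.17. These are descriptions over genes, which are not independent replicates.

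Late responses made up the largest class with a called change. A late call means only that the effect at D1 did not pass, not that it was 0. The 51 late rises had a median log2 effect of -0.093 at D1 and 0.40 at D2, and 14 of them had the same sign at both times. For most late rises, TCDD was thus below DMSO at D1, which adds to the change. The 28 late falls had medians of -0.0057 and -0.52, and 16 had the same sign at both times. PCDH18, a protocadherin of the cell surface, stood at 50.0 and 51.9 CPM with DMSO and 46.5 and 50.6 CPM with TCDD at D1, and at 51.2 and 57.5 CPM against 108 and 111 CPM at D2. The groups overlapped at D1 and stood apart at D2, with a log2 change of 1.08 ± 0.08 (SE, edgeR adjusted p = 6.68e-07). SOX2, a core pluripotency factor that also marks neural cells, had 323 and 347 CPM with DMSO and 292 and 309 CPM with TCDD at D1. At D2 it had 234 and 246 CPM against 350.5 and 372 CPM. Its log2 effect went from -0.16 to 0.59, a change of 0.75 ± 0.07 (SE, edgeR adjusted p = 1.58e-05). From D1 to D2, SOX2 declined with DMSO and not with TCDD. HTR1D, a serotonin receptor, showed the same order of groups, with 20.3 and 21.3 CPM with DMSO and 17.2 and 19.9 CPM with TCDD at D1, and 13.3 and 12.1 CPM against 24.7 and 21.7 CPM at D2 (log2 change 1.03 ± 0.12, edgeR adjusted p = 0.000239).

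**Figure D5:**
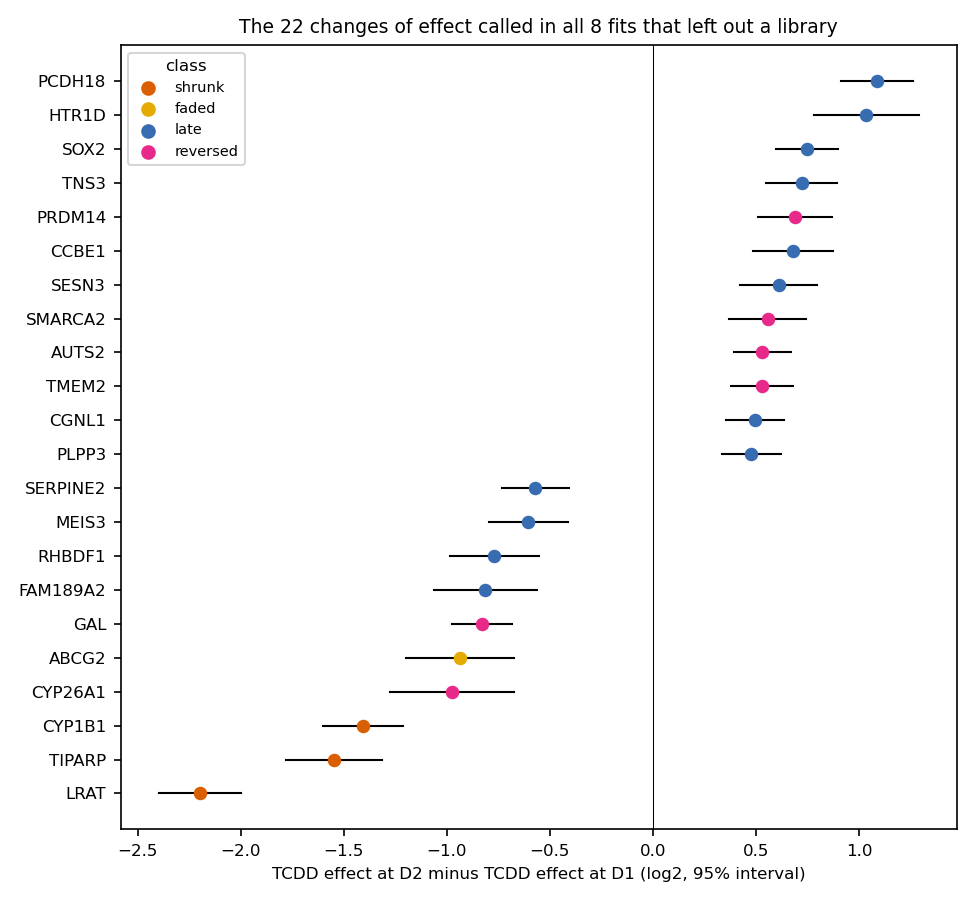
Log2 change of the TCDD effect (D2 minus D1) with its 95% interval for the 22 genes called with all libraries and with each of the 8 left out, coloured by class. LRAT, TIPARP, CYP1B1 and ABCG2 lie on the negative side, and the other negative values belong to GAL, CYP26A1 and the 4 late falls.

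Of the 79 late effects, 12 passed in all 8 fits with a library left out, 8 rises and 4 falls. TNS3, a tensin that links integrins to the actin skeleton, stood at 55.5 and 51.8 CPM with DMSO and 48.0 and 43.0 CPM with TCDD at D1, and at 81.0 and 86.0 CPM against 114 and 119 CPM at D2 (log2 change 0.72 ± 0.08, edgeR adjusted p = 0.000164). The other rises were in CCBE1, a secreted protein of lymphatic growth (0.68), the stress-response gene SESN3 (0.61), the cell junction gene CGNL1 (0.50) and the lipid phosphatase gene PLPP3 (0.48), besides PCDH18, SOX2 and HTR1D. RHBDF1, an inactive rhomboid that regulates growth factor shedding, was the late fall with the smallest p. It stood at 33.8 and 32.0 CPM with DMSO and 34.0 and 29.8 CPM with TCDD at D1, where the groups overlapped, and at 60.6 and 67.6 CPM against 34.6 and 38.5 CPM at D2 (log2 change -0.77 ± 0.10, edgeR adjusted p = 0.000921). Its level went up over time with DMSO and hardly moved with TCDD. SERPINE2, a secreted protease inhibitor, had 106 and 95.4 CPM with DMSO and 89.0 and 82.2 CPM with TCDD at D1, and 317 and 299.9 CPM against 176 and 177 CPM at D2, a change of -0.57. The homeobox gene MEIS3 changed by -0.60 and FAM189A2 by -0.81.

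A few Wnt pathway genes were among the late rises, though calls at D2 went both ways. Of 25 tested Wnt ligands, receptors and inhibitors, 3 rose and 5 fell at D2. Of 21 tested beta-catenin targets, 4 rose and 4 fell at D2, and the change was higher at D2 for 2, AXIN2 (0.38), a feedback inhibitor, and the receptor FZD7 (0.55). FZD7 stood at 454 and 396 CPM with DMSO and 427 and 373 CPM with TCDD at D1, and at 190.0 and 192 CPM against 261 and 265 CPM at D2. It went down over time in both arms, less with TCDD, and its call held in 7 of the 8 fits (edgeR adjusted p up to 0.0589). AXIN2 held in 5 (up to 0.184). Of 25 Wnt ligands, receptors and inhibitors, the change passed for FZD7 and for SFRP1 (0.40), a secreted Wnt antagonist, which held in 4 of the 8 fits (edgeR adjusted p up to 0.192). Pluripotency genes had 4 higher and 1 lower change among 30 tested. Those with a higher effect at D2 included SOX2, PRDM14 and the telomere protein gene TERF1 (0.34, held in 2 of the 8 fits), and the 1 with a lower effect was the Nodal-related ligand gene GDF3. POU5F1 (0.14), NANOG (-0.05) and the ligand NODAL (0.11) were not called for the change. In the neural list 1 of 17 passed, the filament gene NES (0.32), as a small fall at D1 that had faded, held in 2 of the 8 fits.

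Falls that appeared late included genes of the primitive streak. Of 24 tested, 2 rose at D1 (LHX1 and CYP26A1), while at D2 11 fell and 1 rose. The median log2 effect was 0.00 at D1 and -0.50 at D2, and the median change was -0.84, a fitted value that includes genes with no count at D1. Over the 7 with at least 1 CPM with DMSO at D1 the median change was -0.37. The change passed for 4. MIXL1 and FGF4 were late, LHX1 was a rise at D1 that had faded, and CYP26A1 turned round. The LHX1 call held in 3 of the 8 fits. DESeq2 and limma-voom each called 2 of the list, and limma-voom called neither MIXL1 (adjusted p = 0.103) nor FGF4 (0.0621). MIXL1, a homeobox factor of the streak, had 1.32 and 1.58 CPM with DMSO and 1.21 and 1.49 CPM with TCDD at D1, when the gene was barely on. At D2 it had 308 and 286 CPM against 119 and 137 CPM. Its log2 effect was -0.11 at D1 and -1.21 at D2, a change of -1.10 ± 0.23 (SE, edgeR adjusted p = 0.0281). That call held in 4 of the 8 fits and was lost without either DMSO library of D1, DMSO replicate 1 of D2 or TCDD replicate 2 of D1 (adjusted p up to 0.224). GDF3 had 6.21 and 4.96 CPM with DMSO and 5.67 and 5.42 CPM with TCDD at D1, and 29.0 and 28.0 CPM against 14.98 and 17.1 CPM at D2, a change of -0.82 ± 0.15 (SE, edgeR adjusted p = 0.0110), held in 5 of the 8 fits. The growth factor gene FGF4 changed by -1.09 ± 0.24 (SE, edgeR adjusted p = 0.0375) and was lost in each of the 8 fits, at 0.0628 to 0.214.

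Of the 24 streak genes tested, 17 had under 1 CPM with DMSO at D1, where the interval of the change was often wide. EOMES, a T-box factor of streak and endoderm, had 0.0826 to 0.210 CPM over the 4 libraries of D1. Its log2 effect at D2 was -0.86, and the change was -0.85 with a 95% interval of -2.07 to 0.38 (edgeR adjusted p = 0.669). For T the interval ran from -2.97 to 2.73, for the Wnt antagonist DKK1 from -2.30 to 0.03, and for the endoderm factor GATA6 from -4.20 to -0.38, and none passed over all genes. Among the 353 genes called at D2 alone and not told apart, 47 had under 1 CPM with DMSO at D1, 34 of them lowered at D2. The median half-width of their 95% interval was 1.00 on the log2 scale, about as wide as their median effect of 0.97. The other 306 had a half-width of 0.22 and a median effect of 0.36, beside 0.18 and 0.45 for the late genes, all of which had at least 1.10 CPM. For genes near 0 at D1, a response that began by D2 and one already present at D1 cannot be told apart.

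The direction of the late effects can be set beside the time course in controls, as a description since both use the DMSO libraries. Of 51 late rises, 36 were in genes that went down from D1 to D2 with DMSO, and of 28 late falls, 20 were in genes that went up, beside 8512 down and 8729 up among 17241 genes. A high or low DMSO value at D2 moves both quantities, so these counts are no sign of a link. The change over time was smaller with TCDD than with DMSO for 31 of the late rises (60.8%), 15 of the late falls (53.6%) and 68 of the 133 changed effects (51.1%), beside 45.1% of 17241 genes. Definitive endoderm (10 tested, 4 lower at D2) and cardiac and lateral mesoderm genes (12 tested, 5 lower at D2) had no called change of effect with edgeR, DESeq2 or limma-voom, and 1 and 3 of them at an unadjusted p of 0.05 in edgeR.

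Growth of an effect was rare. NTS, the neurotensin precursor, went from a log2 effect of -0.36 to -1.02 (edgeR adjusted p of the change 0.0106), PRICKLE1, a planar cell polarity gene, from 0.58 to 1.11 (0.0212), and the collagen gene COL1A1 from 0.20 to 0.54 (0.0261). The 3 calls held in 6, 4 and 2 of the 8 fits in that order. COL1A1 is also a fibroblast marker. The summed level of the fibroblast markers was 397 to 399 CPM with DMSO and 433 to 457 CPM with TCDD at D1, and 217 to 232 CPM and 282 to 283 CPM at D2. Nearly all of it came from COL1A1 and COL1A2. POSTN, the other marker tested, went the other way on few counts. It had 16 and 20 counts with DMSO and 2 and 9 with TCDD at D1, and 36 and 34 against 30 and 29 at D2. COL1A2 stood at 68.1 to 89.6 CPM over the 8 libraries, with a log2 change of -0.02 (edgeR adjusted p = 0.943). COL3A1 and DCN had at most 2 counts in a library and LUM had 0.

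Effects that turned round were few. For 6 of the 7 the change between times passed in all 8 fits with a library left out. The opposite calls at both times were less stable. Only 1 gene had them without DMSO replicate 1 or without DMSO replicate 2 of D1, 2 without DMSO replicate 1 of D2, 4 or 5 without DMSO replicate 2 or either TCDD library of D2, and 12 and 10 without TCDD replicates 1 and 2 of D1. GAL, the neuropeptide galanin, stood at 84.7 and 83.5 CPM with DMSO and 113 and 106 CPM with TCDD at D1, and at 103 and 97.2 CPM against 72.7 and 74.0 CPM at D2. TCDD libraries were the higher pair at D1 and the lower pair at D2. The log2 effects of 0.38 and -0.45 differed by -0.83 ± 0.07 (SE, edgeR adjusted p = 2.03e-06). CYP26A1, which breaks down retinoic acid, had 4.79 and 4.50 CPM with DMSO and 6.79 and 6.69 CPM with TCDD at D1, and 9.75 and 8.93 CPM against 6.79 and 6.99 CPM at D2. Its level with TCDD was nearly the same at both times, while its level with DMSO went from below to above it, a change of -0.97 ± 0.14 (SE, edgeR adjusted p = 0.00204). Together with LRAT it made up the 2 called changes among 17 genes of retinoid metabolism and reception. PRDM14, a regulator of pluripotency, went the other way. It had 52.0 and 52.1 CPM with DMSO and 44.4 and 41.5 CPM with TCDD at D1, and 20.5 and 19.8 CPM against 26.0 and 27.7 CPM at D2, a change of 0.69 ± 0.08 (SE, edgeR adjusted p = 0.000404). AUTS2, a regulator of neural development, went from -0.22 to 0.31, TMEM2, a hyaluronidase of the cell surface, from -0.27 to 0.26, and SMARCA2, an ATPase of the SWI/SNF chromatin remodeller, from -0.34 to 0.22. SMARCA2 came closest to losing the call of its change (edgeR adjusted p up to 0.0448). The seventh gene, PLCL2, went from -0.34 to 0.31 and was lost in 1 of the 8 fits (0.0665).

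Of 23 genes of FGF signalling and ERK feedback, the change was higher for FGFR2 (0.38) and lower for FGF4 and the ERK inhibitor SPRED1 (-0.30), with a median change of -0.22. At an unadjusted p of 0.05 in edgeR there were 11, 8 of them lower. FGFR2 held in 4 of the 8 fits and SPRED1 in 1, and SPRED1 was also lost with a stricter filter, size factors, limma-voom and the replicate block (adjusted p = 0.0552 to 0.0582). DESeq2 called 2 of the list and limma-voom 1. Of 19 genes of the Nodal and Activin pathway, GDF3 alone passed. JAG1, a Notch ligand, passed among 14 Notch genes (0.38) and held in 1 of the 8 fits, with 6 of the list at an unadjusted p of 0.05. VIM, the mesenchymal filament gene, passed among 22 genes of cadherins and epithelial-mesenchymal transition (0.37), as a fall at D1 that had faded, held in 4 of the 8 fits. No change of effect was called by edgeR, DESeq2 or limma-voom among 19 BMP ligands and targets, 22 genes of amino acid stress and unfolded proteins, 16 NRF2 targets, 18 mitosis genes, 16 p53 targets and 11 caudal and HOX genes. At an unadjusted p of 0.05 in edgeR there were 2, 3, 0, 2, 1 and 2 of them in that order. The 3 genes of the apelin system had none at either threshold, although APELA itself was raised at both times.

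The 8 libraries held 34873055 to 43770420 counts each, and the median gene had a 95% interval of the change of ±0.23 on the log2 scale. Replicates differed more at D1 with TCDD (SD of their log2 difference 0.12) than with DMSO at D2 (0.079). Pluripotency markers summed to 7003 to 7790 CPM over the libraries of D1 and 5674 to 6058 CPM over those of D2. Primitive streak markers summed to 2.31 to 2.87 CPM at D1, and at D2 to 788 to 810.4 CPM with DMSO and 474 to 545 CPM with TCDD. Of the 7 markers, 5 were called lower at D2, and SP5 and MESP1 were not. SP5 had 7062 and 8481 counts with DMSO at D2 and 8378 and 8397 with TCDD, and MESP1 had 37 and 44 against 57 and 47. Whether there were fewer streak cells or less RNA of some genes per cell was not tested and cannot be told apart here. Endothelial and blood markers had at most 4 counts. Of the cardiac markers, TNNT2 had 522 to 660 counts at D1 and 118 to 146 at D2, with no called change of effect (0.18), and NKX2-5 had at most 3. The housekeeping genes ACTB (-0.01) and GAPDH (-0.10) showed no called change of effect.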

How the data were processed

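RNA was sequenced from 8 libraries of the Mel1 line, grouped by their titles into 4 groups of 2. The deposited tables hold raw counts per gene symbol. Per the submitters' processing notes, the authors used cutadapt 1.9.1, STAR and featureCounts 1.5.1 with hg19. Strand setting and handling of reads shared by genes: not given in the sources used here. Genes were filtered with filterByExpr, which left 17268 of 27317, and 4199 had no count in any library. Counts were scaled by TMM (0.958 to 1.04) and fitted in R 4.3.3 with edgeR 4.0.16 (quasi-likelihood F test, a mean per group over all 8 libraries, two-sided, Benjamini-Hochberg adjustment over all genes tested, threshold 0.05). CPM are edgeR's, relative to scaled totals. Replicates differed by more than sampling noise (chi-square per gene 3.21 to 6.59). Alternatives were DESeq2 1.42.0, limma 3.58.1 (voom), other scalings and filters, a replicate block, robust shrinkage, a threshold of 0.01 and leaving out each library. The scripts were tested on simulated data. Upstream sequences came from RefSeq's GRCh38.p14 table, in which 12402 of the 17268 tested genes matched. Matched genes per class were few, such as 37 of 47 kept rises and 8 of 11 faded rises, so no comparison of classes by motif is made. The members and lists were chosen with earlier results of these data known. Named genes were, among genes of at least 1 CPM in a group and with a conventional symbol, the 10 largest called changes in each direction, up to 6 per class and direction, 28 fixed genes, and up to 4 of each list with 2 called members. Other genes named were chosen after their values were seen. A result for 1 gene that the rule names is not reported here. Classes and the rules behind them are defined in the results.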

Additional observations from a re-analysis of the deposited data

Results flagged for a closer look

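Each value below is a log2 TCDD effect at D2 less the one at D1, flagged because the effects at both times differed by the edgeR test of the difference itself. No explanation was tested. Being listed here does not mean that a call held with each library left out. Many of these calls were lost in such a fit, and some under another method.

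Among AHR-linked genes the change was -4.27 for CYP1A1, -2.20 for LRAT, -1.55 for TIPARP and -1.41 for CYP1B1. Effects that turned round changed by -0.97 for CYP26A1, -0.83 for GAL, 0.53 for TMEM2, 0.53 for AUTS2, 0.56 for SMARCA2, 0.65 for PLCL2 and 0.69 for PRDM14.

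Rises that had faded changed by -1.35 for DNAH5, -0.94 for ABCG2, -0.47 for RND3, -0.47 for RAB38, -0.43 for ELL2, -0.37 for PDK1, -0.36 for BNIP3, -0.33 for P4HA1 and -0.30 for SPRED1. Falls that had faded changed by 0.38 for JADE1, 0.43 for SAMHD1, 0.45 for ETS1, 0.56 for STOX2, 0.56 for IRX2, 0.73 for PWAR5 and 0.96 for PEG13. Effects that grew changed by -0.66 for NTS, 0.34 for COL1A1 and 0.52 for PRICKLE1. ZNF483 (0.72) and PROX1 (1.01) were called for the change alone.

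Late falls changed by -1.14 for GMPR, -1.10 for MIXL1, -1.09 for FGF4, -0.95 for PDGFB, -0.82 for GDF3, -0.81 for FAM189A2, -0.77 for RHBDF1, -0.65 for ADAMTS1, -0.60 for MEIS3 and -0.57 for SERPINE2. Late rises changed by 0.38 for AXIN2, 0.38 for FGFR2, 0.40 for SFRP1, 0.50 for CGNL1, 0.55 for FZD7, 0.68 for CCBE1, 0.72 for TNS3, 0.74 for NTN1, 0.75 for SOX2, 0.75 for HES3, 1.03 for HTR1D, 1.08 for PCDH18 and 1.22 for S1PR1.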

How the results depend on the processing

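Each alternative was set against 133 changed effects (85 higher, 48 lower), 207 calls at D1 and 509 at D2. DESeq2 (139), size factors in place of TMM (136), no composition scaling (138, of which 75 higher and 63 lower), a stricter filter (134), limma-voom (112) and robust shrinkage (142) gave changed effects within 1.5 times of that, and none of these scalings moved the median gene by more than 0.03 on the log2 scale. DESeq2, no composition scaling, the replicate block and robust shrinkage, the last chosen after seeing the data, each gave 5 grown effects. With no filter beyond 1 count there were 468 (274 higher, 194 lower), 505 calls at D1, 908 at D2, and 119 kept, 12 grown, 11 shrunk, 110 faded, 234 late and 28 reversed. At a threshold of 0.01 there were 32 (20 higher, 12 lower), with 35 kept, 0 grown, 1 faded, 23 late and 1 reversed.

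Same-numbered libraries deviated together within a time (correlation over 10375 genes 0.308 at D1 and 0.21 at D2). Between times the correlations ran from -0.29 to 0.0444. No label says that equal numbers mark a shared culture or day, so the main fit took no pairs. The TCDD effects are contrasts within a time, so that shared deviation bears on them, and the main fit did not model it. The replicate block gave 159 (99 higher, 60 lower), 225 at D1 and 515 at D2. A replicate block within each time, chosen after seeing the data, leaves few degrees of freedom and gave 573 (361 higher, 212 lower), 595 calls at D1, 1134 at D2, and 146 kept, 14 grown, 11 shrunk, 139 faded, 285 late and 38 reversed.

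Leaving out each library gave 29 to 275 changed effects (15 to 203 higher, 14 to 72 lower), 80 to 265 calls at D1 and 198 to 648 at D2. It gave 39 to 63 kept, 0 to 4 grown, 3 to 5 shrunk, 3 to 82 faded, 19 to 117 late and 1 to 12 reversed. The causes of these shifts were not tested. Of the 133 genes, 98 passed in all the other alternatives at 0.05 and 22 with each library left out as well. Named genes without a called change crossed 0 when some library was left out, with ranges of LEFTY1 -0.20 to 0.55, LHX4 -0.34 to 0.18, DCLK1 -0.069 to 0.11, EOMES -1.31 to 0.0043, T -0.89 to 0.69, LEFTY2 -0.17 to 0.14, APELA -0.13 to 0.35, PPP1R3B -0.0401 to 0.19, MYADML2 -0.62 to 0.091, ACTB -0.031 to 0.00599 and BMP4 -0.068 to 0.20. DCLK1 also crossed it without composition scaling (-0.009014). Over all named genes and settings, 1243 values kept direction and side of the threshold, 165 lost it and 2 gained it. Among genes called at D2 alone and not told apart, 47 had under 1 CPM with DMSO at D1 and wide intervals.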
